A study of Rattus norvegicus with 2 samples.

Results

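The lipogenic genes examined here were 10 genes of hepatic fatty acid synthesis and its control: Thrsp, Mlxipl, Srebf1, Slc25a1, Acly, Acss2, Acaca, Acacb, Fasn and Me1. They were chosen by gene symbol, as every probe set that the array platform's annotation gives to 1 of these symbols, which came to 16 of 31099 probe sets and 10 of 14217 named genes. RNA came from rat liver left in place 24 h after partial hepatectomy (PH), the removal of part of the liver. The group 1/3PH had the smaller part removed and the group 2/3PH the larger part, and the question of the series was which transcripts differ between a liver with a small and one with a large replicative response. Each group was 1 Affymetrix array of RNA pooled from 3 rats, so there was no replicate, no difference below carries a p-value, and differences between animals were averaged in the pool. The sources used here do not state strain, age, sex or feeding, and no unoperated liver was analysed, so a lower value after 2/3PH may equally be a higher value after 1/3PH.

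Fatty acid synthesis in the liver starts from citrate that leaves the mitochondrion and is split in the cytosol to acetyl-CoA, which is carboxylated to malonyl-CoA and built up to palmitate with NADPH as the reductant. Transcription of its enzymes is driven by the sterol regulatory element-binding protein encoded by Srebf1, which responds to insulin, and by the carbohydrate response element-binding protein encoded by Mlxipl, which responds to glucose metabolites. Thrsp (Spot 14) is a small nuclear and cytosolic protein whose transcript is induced by thyroid hormone, carbohydrate and insulin in liver.

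Most lipogenic genes had lower signals after 2/3PH, by amounts that ran from 16.0-fold for Thrsp to 1.29-fold for Slc25a1, and Me1 was nearly level. Acss2 was 6.20-fold lower, Acly 3.33-fold, Srebf1 2.85-fold and Fasn 2.16-fold. Each gene is read here from its brightest probe set over both arrays, and the floor for a usable signal was the median of all probe sets that are not controls, a log2 signal of 6.48. Of the 10 genes, 9 lay above the floor, and Acacb did not. Of these 9, 5 were at least 2-fold lower, where 3.68% of the 9514 genes above the floor were, and 0 were at least 2-fold higher, where 6.12% of all genes were. At a limit of 3-fold, 3 of the 9 were lower (0.999% of all genes) and 0 higher (2.24%), and at 1.5-fold 7 were lower (12.0%) and 0 higher (15.8%). The median log2 ratio, 2/3PH minus 1/3PH, was -1.11 over the 9 genes and 0.03 over all 9514. The 9 ratios were spread widely, with an SD of 1.25 against 0.66 over all genes. In liver RNA of mixed cells, fewer cells of a type and less RNA per cell cannot be told apart.

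**Figure D1:**
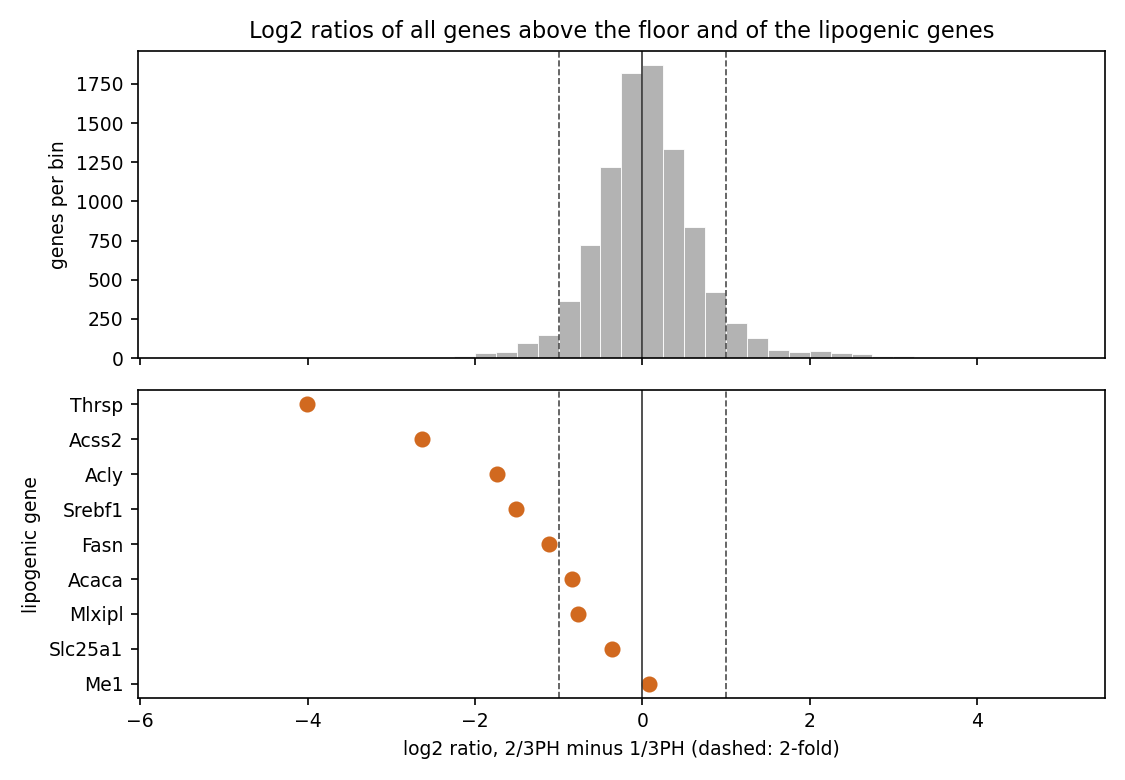
The upper panel counts all 9514 genes above the floor by log2 ratio, 2/3PH minus 1/3PH, in bins 0.25 wide, and the lower panel places the 9 lipogenic genes above the floor on the same axis. Thrsp lies at -4.00, 5 genes lie left of the dashed line for 2-fold lower, and Me1 lies at 0.08.

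The windows before the gene starts are shown for the members with the lowest ratios and, for contrast, for Me1. The RefSeq promoter table of build GRCr8 held 10 windows for 8 of the genes, with more than 1 start for Srebf1 and Mlxipl. It held no window under the symbols Fasn and Acaca. Each line gives the 250 bases before a start, 5′ to 3′ on the gene's strand, with matches to any of the 5 motifs searched below in capitals.

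Thrsp, chr1:161138965-161139214, minus strand: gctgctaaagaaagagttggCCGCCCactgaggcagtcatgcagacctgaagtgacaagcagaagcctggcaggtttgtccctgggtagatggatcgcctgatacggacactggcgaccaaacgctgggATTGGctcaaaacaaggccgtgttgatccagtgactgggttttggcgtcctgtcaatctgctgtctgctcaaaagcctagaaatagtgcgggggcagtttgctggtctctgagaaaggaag
Acss2, chr3:164464453-164464702, plus strand: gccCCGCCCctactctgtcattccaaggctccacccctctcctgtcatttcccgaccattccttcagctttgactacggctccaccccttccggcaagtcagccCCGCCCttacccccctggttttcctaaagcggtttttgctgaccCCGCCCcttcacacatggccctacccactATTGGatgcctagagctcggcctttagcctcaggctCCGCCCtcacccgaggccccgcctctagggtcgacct
Acly, chr10:85963632-85963881, minus strand: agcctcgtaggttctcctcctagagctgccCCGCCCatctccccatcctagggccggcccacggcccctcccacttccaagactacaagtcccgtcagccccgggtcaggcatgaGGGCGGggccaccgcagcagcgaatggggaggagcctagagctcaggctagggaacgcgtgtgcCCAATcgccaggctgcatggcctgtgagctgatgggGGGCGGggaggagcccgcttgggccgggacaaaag
Srebf1, upstream start, chr10:45529165-45529414, minus strand: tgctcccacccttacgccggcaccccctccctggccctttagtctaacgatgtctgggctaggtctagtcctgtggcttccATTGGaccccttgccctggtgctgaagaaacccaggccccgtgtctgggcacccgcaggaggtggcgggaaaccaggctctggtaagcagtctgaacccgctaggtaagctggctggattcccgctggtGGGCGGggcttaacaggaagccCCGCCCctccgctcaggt
Srebf1, downstream start, chr10:45519011-45519260, minus strand: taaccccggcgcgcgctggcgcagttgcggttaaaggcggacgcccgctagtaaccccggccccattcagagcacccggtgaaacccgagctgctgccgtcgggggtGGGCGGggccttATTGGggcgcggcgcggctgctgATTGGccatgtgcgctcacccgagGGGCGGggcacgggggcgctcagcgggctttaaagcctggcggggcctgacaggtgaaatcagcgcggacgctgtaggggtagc
Me1, chr8:96540245-96540494, minus strand: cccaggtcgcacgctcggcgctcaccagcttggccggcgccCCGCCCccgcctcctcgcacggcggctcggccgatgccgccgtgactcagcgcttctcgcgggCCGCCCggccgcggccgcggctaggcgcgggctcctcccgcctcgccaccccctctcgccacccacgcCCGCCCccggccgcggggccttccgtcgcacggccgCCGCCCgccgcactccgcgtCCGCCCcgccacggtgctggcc

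Motifs were searched on both strands of these windows and of all 33469 windows in the table. The letters CCAAT, the box bound by NF-Y, stood in the windows of 7 of the 8 genes, Me1 being the exception, and in 34.0% of all windows. In Thrsp the match lies on the opposite strand, as ATTGG, 121 to 117 bases before the start. The GC box GGGCGG, read by Sp1 family factors, stood in the windows of 6 of the 8 genes, with Mlxipl and Acacb lacking it, and in 30.5% of all windows. Acss2 had 4 such matches and Me1 had 5, so genes at both ends of the range of ratios held it. The sterol regulatory element core TCACNCCAC was found in 0 of the 10 windows and in 0.974% of all windows, and the E-box CACGTG, which reads the same on both strands, in 0 of the 10 and in 5.59%. A direct repeat of nuclear receptor half-sites with a spacer of 4 bases was found in 0 of the 10 and in 0.00299% of all windows. That is 1 of the 33469 windows, so its absence from the members' windows is uninformative. The 33 matches in the members' windows do not overlap each other, and the Mlxipl windows share 246 bases, so they are not separate evidence. A match to these letters is a description of the sequence and not a binding site. Sites that depart from these letters, or that lie outside the windows, were not searched. A count of 0 therefore does not show that a gene lacks a site for the factor concerned, the sterol regulatory element included.

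Among the regulators, Thrsp differed most between the arrays. It had 3 probe sets, with signals of 9851, 8249 and 3273 on the 1/3PH array and 614, 503 and 162 on the 2/3PH array. All 3 were far lower after 2/3PH, and their log2 ratios of -4.00, -4.04 and -4.34 spanned 0.33. Its ratio by the brightest probe set ranked 2 from the lowest among the 9514 genes. Over the 2067 genes that had more than 1 probe set over the floor, the pooled SD of the log2 ratio between probe sets of 1 gene was 0.33, the only measure of error the arrays give, and it holds no variation between animals.

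Srebf1 had signals of 3001 after 1/3PH and 1052 after 2/3PH by its brighter probe set, a log2 ratio of -1.51. Its dimmer probe set gave 175 and 74.0, and since the latter is under the floor signal of 89.2 the difference is at least 1.96-fold lower. Both probe sets point the same way, and the annotation does not say which Srebf1 isoform either one reads. Mlxipl, with 1 probe set, stood at 1030.4 and 605, or 1.70-fold lower, which is short of the 2-fold limit. Mlxipl ranked 688 from the lowest of 9514 genes and Srebf1 ranked 107. A factor that scales a whole array cancels in differences between genes, and on that footing Thrsp was lower than Mlxipl by a further 9.43-fold and lower than Srebf1 by a further 5.62-fold.

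**Figure D2:**
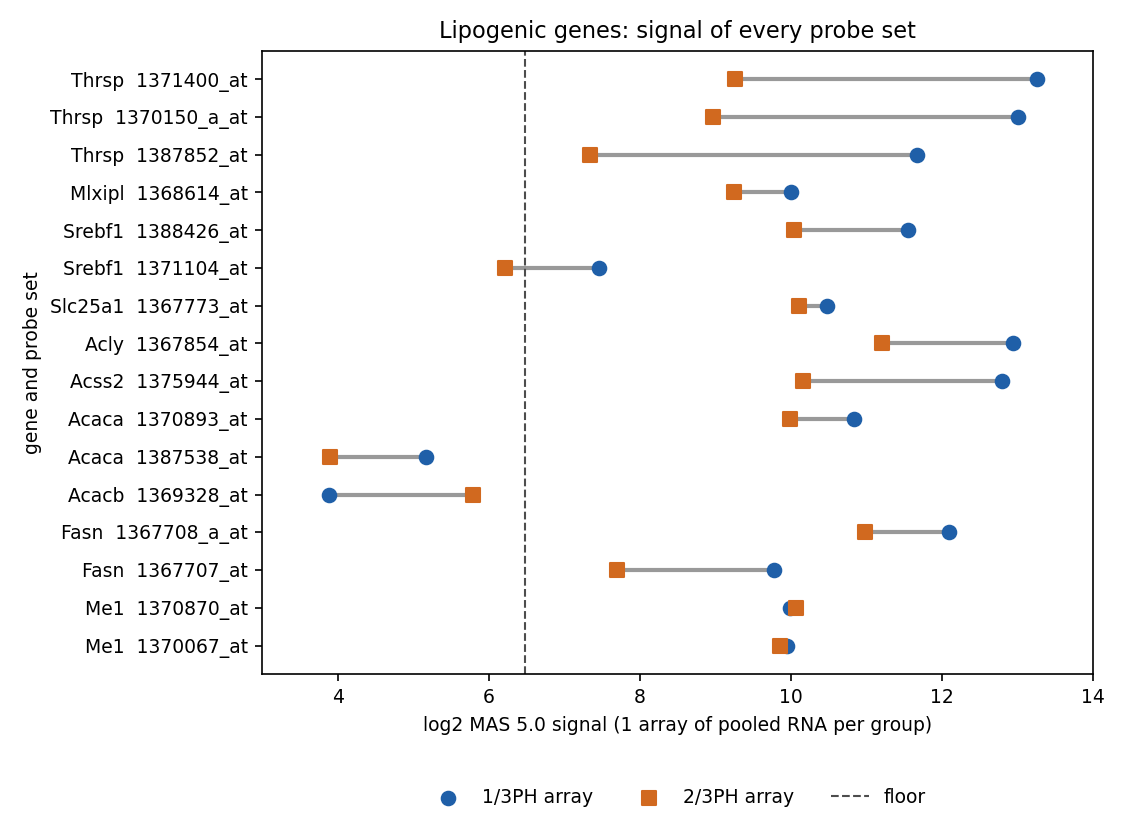
Every probe set of the 10 lipogenic genes is drawn with its log2 MAS 5.0 signal on the 1/3PH array (circles) and on the 2/3PH array (squares), and the dashed line marks the floor at 6.48. The circle lies right of the square for all 3 Thrsp probe sets, both Srebf1 and both Fasn probe sets, the pairs of Me1 nearly coincide, and the Acacb probe set lies under the floor on both arrays.

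The genes that supply cytosolic acetyl-CoA differed among themselves. Slc25a1, the mitochondrial citrate carrier, had signals of 1422 after 1/3PH and 1105 after 2/3PH, 1.29-fold lower. Its log2 ratio of -0.36 turned to 0.08 when the arrays were scaled to the poly-A controls, RNAs added to the samples before labelling. ATP citrate lyase, Acly, which splits the exported citrate, had signals of 7865 and 2363. Its log2 ratio of -1.74 ranked 70 from the lowest. Acss2, which makes acetyl-CoA from acetate in the cytosol and nucleus, had signals of 7109.5 and 1146. Its ratio of -2.63 ranked 9 from the lowest, so the enzymes for both routes to cytosolic acetyl-CoA were past 2-fold while the carrier before Acly was not. Acss2 was lower than Acly by a further 1.86-fold, and Acly lower than Slc25a1 by a further 2.59-fold. Each of these genes had 1 probe set, so none has a second reading on the arrays.

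By their brightest probe sets, Acaca and Fasn were lower by less than Acly and Acss2. Acaca, the cytosolic acetyl-CoA carboxylase that makes malonyl-CoA for synthesis, had signals of 1832 and 1021, or 1.79-fold lower. Its other probe set read 35.9 and 14.8, both under the floor, and gives no fold. Acacb, the carboxylase at the mitochondrial outer membrane whose malonyl-CoA restrains fatty acid oxidation, was read by 1 probe set at 14.7 and 55.4, under the floor on both arrays. Both readings are too dim to give a fold or a direction for Acacb.

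Fasn, the multifunctional synthase that builds palmitate, had signals of 4357 and 2016 by its brighter probe set and 877 and 207 by its dimmer one. Both were at least 2-fold lower, but by different amounts, 2.16-fold and 4.23-fold. Their log2 ratios of -1.11 and -2.08 lay 0.97 apart, and 4.41% of the 1609 genes with exactly 2 probe sets above the floor showed a gap at least as wide. The brighter Fasn reading lost its 2-fold call under scaling to the hybridisation controls, at -0.88, and to the poly-A controls, at -0.67. Acaca and Fasn by their brighter probe sets lay 0.27 apart in log2 ratio, which is less than the pooled SD between probe sets of a gene.

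Me1, the cytosolic malic enzyme that yields NADPH for the synthase, had signals of 1018 and 1074 by one probe set and 989.9 and 927 by the other. The readings differed between arrays by 1.06-fold and 1.07-fold in opposite directions. It ranked 5067 among the 9514 genes, near the middle, and lay 1.19 above Fasn and 4.08 above Thrsp in log2 ratio. Among the 14 lipogenic probe sets above the floor, 13 had log2 ratios below 0, and the exception was the brighter Me1 probe set.

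**Figure D3:**
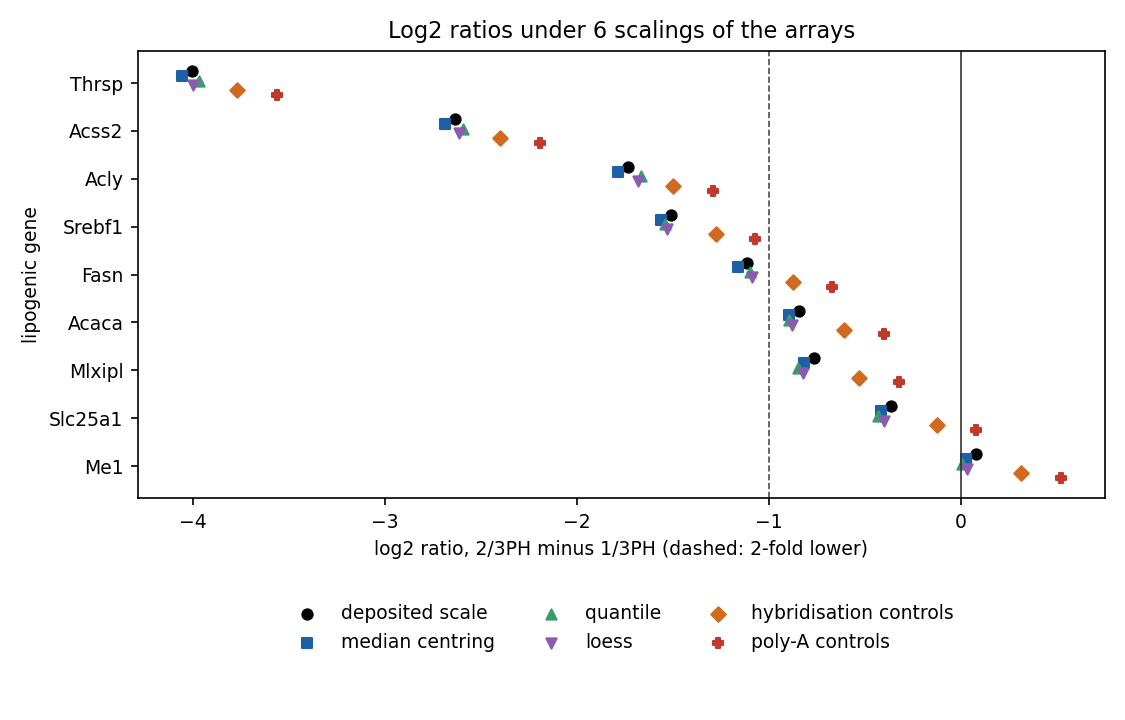
Each row gives the log2 ratio, 2/3PH minus 1/3PH, of a lipogenic gene on the deposited scale and under 5 other scalings of the arrays, and the dashed line marks 2-fold lower. Thrsp, Acss2, Acly and Srebf1 stay left of that line under all 6, Fasn crosses it under both control scalings, and Slc25a1 reaches 0.08 under poly-A scaling.

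Scaling sets where 0 lies on this axis. Under scaling to the hybridisation controls the median of all genes moved up by 0.24, and under the poly-A controls by 0.44. Thrsp, Srebf1, Acly and Acss2 were at least 2-fold lower under both, where 2.21% and 1.29% of all genes were. The split of all genes past 2-fold was 350 lower and 582 higher on the deposited scale, 210 and 973 with hybridisation controls, and 123 and 1599 with poly-A controls. The gap between the median of the lipogenic genes and that of all genes is the same in these scalings, since each shifts all genes alike.

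By distance over both log2 signals, the genes nearest to Thrsp were Acss2 at 1.02, Hsd17b2 at 1.10, Lss at 1.30 and Ppp1r3b at 1.33. Hsd17b2 inactivates oestradiol and testosterone, Lss is the lanosterol synthase of cholesterol synthesis, and Ppp1r3b targets protein phosphatase to glycogen. With 2 arrays this likeness rests on 2 values per gene, and signals of different probe sets are not on a common scale.

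The other genes around fatty acid synthesis were read in 8 lists, and in none of them was the median as low as in the lipogenic genes. Around Mlxipl, 0 of 11 partners and glucose-responsive genes above the floor were 2-fold lower and 0 were 2-fold higher. The median of that list was 0.26 on the log2 ratio scale. Khk, ketohexokinase, was 1.91-fold lower, whereas the hormone Fgf21 was 1.83-fold higher, the triokinase Tkfc 1.78-fold and Klf10 1.67-fold. All 3 passed 2-fold under poly-A scaling, and Fgf21 and Tkfc also under the hybridisation controls. Pklr, the liver pyruvate kinase and a classical Mlxipl target, read 351 and 362, a log2 ratio of 0.04, and its other probe set gave -0.20. The ratio of the brighter probe set turned negative under median centring, quantile normalization and loess.

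Among genes of SREBP processing and the factors upstream of Srebf1, 1 of 14 was 2-fold lower and 0 were 2-fold higher, with a median of 0.20. The lower one was Insig1, which holds the SREBP escort in the endoplasmic reticulum and is itself an SREBP target, with signals of 12034 and 2027 and a ratio of -2.57. Its relative Insig2 was 1.66-fold higher by its brighter probe set, and 0.07 on the log2 scale by the other. The escort Scap was 1.48-fold lower and the CCAAT-binding subunit Nfya 1.88-fold higher. Insig2 passed 2-fold under poly-A scaling, and Nfya under both control scalings. Nr0b2, a repressing nuclear receptor known as SHP, was named after its values were seen, because its mean log2 signal was just under the floor. Its signals were 282 and 26.2, at least 3.16-fold lower.

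In the thyroid hormone list, 2 of 10 genes were 2-fold lower and 1 was 2-fold higher, with a median of -0.48. Dio1, the deiodinase that is also a thyroid hormone target, read 391 and 128, a ratio of -1.61, and Slc10a1, a bile acid carrier that also takes up thyroid hormone sulphates, was 5.51-fold lower. Gpd2, the mitochondrial glycerol-3-phosphate dehydrogenase and a classical thyroid hormone target, went the other way, with 239.9 and 667. Thrsp, Dio1, Gpd2 and Me1 are all textbook thyroid hormone targets, and their ratios ran from -4.00 to 1.47. The part of thyroid hormone in these ratios was not tested. Klf9 was 1.96-fold lower and passed 2-fold under median centring. Mid1ip1, the paralog of Thrsp, read 1059 and 735, 1.44-fold lower, so Thrsp was lower by a further 11.1-fold.

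In insulin and energy sensing, 0 of 12 genes were past 2-fold in either direction and the median was 0.01. Gckr was 1.72-fold lower, Foxo1 1.34-fold and the insulin receptor Insr 1.32-fold lower, and Akt1 1.43-fold higher. Foxo1 and Insr turned positive under poly-A scaling.

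Of 11 genes of mitochondrial citrate and acetyl-CoA formation, 1 was 2-fold lower and 0 higher, and the median was -0.02. Pdk2, a kinase that inhibits pyruvate dehydrogenase, was 2.25-fold lower, a call lost under both control scalings, while its relative Pdk4 was 1.41-fold higher. The mitochondrial acyl-CoA synthetase Acss3 was 1.68-fold lower, against 6.20-fold for Acss2, and pyruvate carboxylase Pc had a log2 ratio of -0.58. Of 12 partners and opponents of the carboxylase and the synthase, 0 were past 2-fold, and the median was -0.13. The acyl-CoA synthetases Acsl3 and Acsl1 were 1.98-fold and 1.84-fold lower and Acbd4, an acyl-CoA binding protein, 1.46-fold. Acsl3 passed 2-fold under median centring, quantile normalization and loess. Hlcs, which attaches biotin to the carboxylases, was 1.36-fold higher.

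Among 7 genes listed with other NADPH sources, 0 were 2-fold lower and 1 was 2-fold higher, with a median of 0.04. Not all of them make NADPH. Tkt and Taldo1, pentose phosphate enzymes that do not, lay at ratios of 0.27 and 0.29. Me2, a mitochondrial malic enzyme that yields mainly NADH, was the higher one, with 242 and 626. Unlike Me1 it lay at a ratio of 1.37. Of the genes that do make NADPH, Pgd of the pentose phosphate pathway was 1.54-fold lower and Idh1 1.48-fold. H6pd, an enzyme of the endoplasmic reticulum, was 1.79-fold lower, and Mthfd1 lay at a ratio of 0.04. Of 13 genes listed with the steps after palmitate, 2 were 2-fold lower and 0 higher, and the median was 0.06. Fads1 and Fads2, desaturases that act mainly on polyunsaturated fatty acids and not on products of palmitate, were 3.24-fold and 1.93-fold lower. Fads2 passed 2-fold under median centring, quantile normalization and loess. Lpin1 and Lpin2, phosphatidate phosphatases, were 1.87-fold and 2.24-fold lower, but a dimmer Lpin2 probe set stood at a log2 ratio of 0.83. Elovl6, which elongates palmitate, read 942 and 1032, and the desaturase Scd 1973 and 2296. Elovl6 and Scd lay close to level, at ratios of 0.13 and 0.22, next to -1.11 for Fasn.

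**Figure D4:**
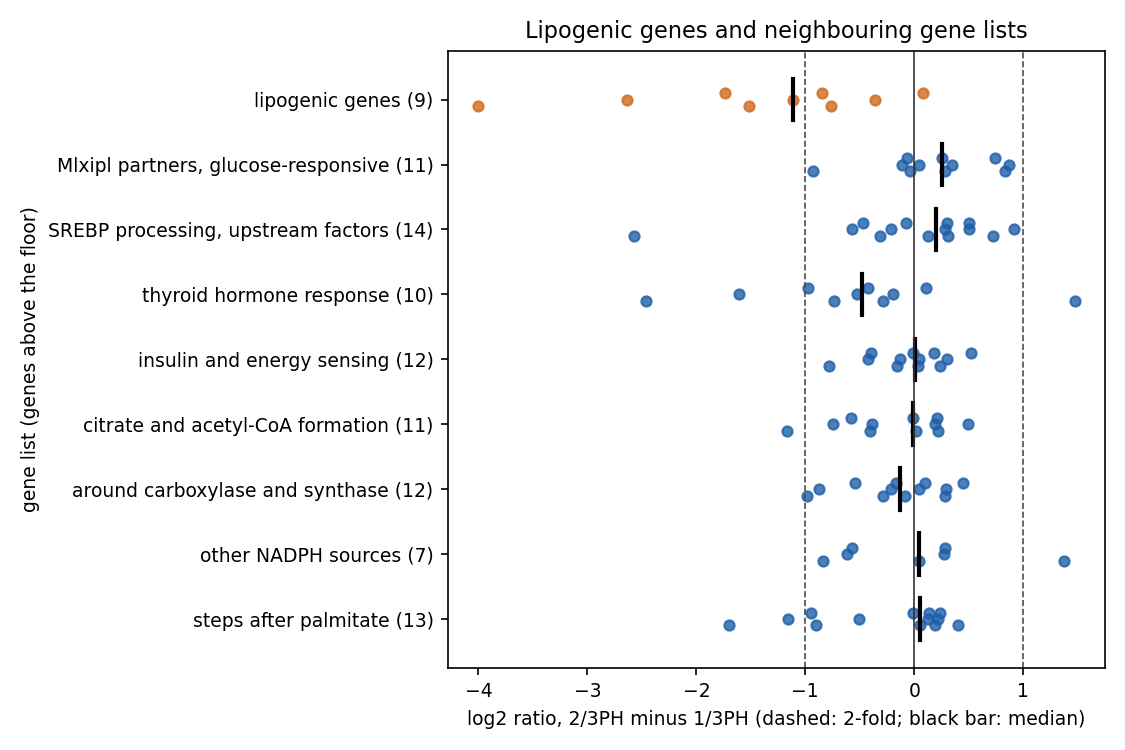
Each point is a gene above the floor, placed by its log2 ratio, 2/3PH minus 1/3PH, with the lipogenic genes in the top row and 8 neighbouring lists below, and the black bar is the median of each row. The median of the top row lies at -1.11, and those of the lists lie between -0.48 and 0.26.

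The medians of several lists change sign with the scaling. Those of insulin and energy sensing, citrate formation, the carboxylase and synthase partners, other NADPH sources and the steps after palmitate did so under 1 or more of the 5 other scalings. The medians around Mlxipl and Srebf1 stayed above 0 and that of thyroid hormone response stayed below 0, at -0.03 under poly-A scaling.

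Markers checked the labelled tissue and the other cells it holds. All 7 hepatocyte markers found, Alb and Apoa1 among them, were above the floor, with summed signals of 255115 after 1/3PH and 229777 after 2/3PH and a median log2 ratio of -0.15. That median turned positive under 4 of the 5 other scalings. Adipocytes also express lipogenic genes. Of 7 adipocyte markers 3 were above the floor, and the summed signal was 3358 and 3000.3. Most of that sum came from Cidec, at 2358 and 1896, and Cfd, at 808 and 638. Adipoq read 26.5 and 20.5 and Lep 5.09 and 5.13, all under the floor, as were Plin1 and Adrb3, the latter listed at a log2 signal of 0.0 after 2/3PH. Fabp4, which macrophages and endothelial cells express too, was 4.17-fold higher, and Cfd and Cidec were 1.27-fold and 1.24-fold lower. The part of adipocytes in the lipogenic ratios was not tested.

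Markers of several other liver cells also had lower signals after 2/3PH. All 6 macrophage markers, all 6 endothelial markers and all 4 erythroid and neutrophil markers above the floor had ratios below 0, with medians of -0.64, -0.67 and -0.98. Their summed signals were 8961 and 6652, 7453 and 4309, and 27124 and 13511. Of 7 stellate cell markers 4 were below 0, with a median of -0.33 that turned positive under poly-A scaling and sums of 11099 and 6976. Of 3 cholangiocyte markers above the floor 1 was below 0, with a median of 0.23. Sums over all 4 cholangiocyte markers found were 1239.9 and 1292. The part of these cells in the lipogenic ratios was not tested.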

How the data were processed

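Rat liver RNA was measured on 2 Affymetrix arrays, 1/3PH and 2/3PH, each a pool of 3 rats per the series' design text. Per the labels' protocols, the signal was computed with MAS 5.0 in Gene Spring Software 11.0, which multiplies all signals of an array by 1 factor. The authors deposited log2 signals. Read as powers of 2, their mean without the outer 2% at each end was 500.3 and 500.2, which settled the log base. The sources used here state neither the scaling target nor detection calls, so the median mean log2 signal of the 31042 probe sets that are not controls, 6.48, served as a floor. The number of arrays limits the precision.

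Probe sets were named from the platform annotation, updated through Entrez identifiers to RefSeq (GRCr8): 20826 had 1 symbol, 436 several and 9780 none listed. Log2 ratios, 2/3PH minus 1/3PH, were computed per probe set, with 2-fold as the limit. Where the dimmer signal was under the floor, the floor signal took its place and the fold is given as "at least". Genes beyond the 10 members were named by a rule: up to 4 per list by absolute ratio, the 4 nearest to Thrsp, and Insig1, Pklr, Mid1ip1, Elovl6 and Scd. Some other genes of this rule are not reported here. Nr0b2, the marker genes named and Lpin2's second probe set fall outside it and were picked after their values were seen. Members and lists were chosen with earlier results of these data known. The procedure was tested on simulated data, with planted changes past the 2-fold limit in genes well above the floor. Its noise was the SD between probe sets of a gene. It held no variation between animals or arrays, so it does not show how reliable the fold calls are. Calculations used Python 3.11.15, pandas 2.3.3 and statsmodels 0.14.6.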

Additional observations from a re-analysis of the deposited data

How the results depend on the processing

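With 1 array per group there is no error between animals, and the pooled SD of 0.33 between probe sets of a gene was used to judge whether a value moved. The alternatives were 13: median centring, quantile normalization, loess, both control scalings, 64 units added before the log, the mean or the dimmest of a gene's probe sets, removal of probe sets with shared-sequence suffixes, a floor at the 75th percentile or none, and limits of 1.5-fold and 3-fold. The count of lipogenic genes at least 2-fold lower was 5, and between 4 and 6 under the alternatives that kept the 2-fold limit. With the 1.5-fold limit, 7 genes were lower by at least that limit, and with the 3-fold limit 3 were (Thrsp, Acly and Acss2). The count at least 2-fold higher was 0 except without a floor, where Acacb made it 1. The median of -1.11 became -0.67 under poly-A scaling and -1.51 without the suffixed probe sets, which leaves the dimmer Fasn probe set and its ratio of -2.08. Of 81 values of single members under the alternatives, 68 lay within that SD of the reported value and 13 did not, 9 of them under poly-A scaling. Many of these outcomes were fixed in advance, so the tally does not measure how stable the values are. Median centring and both control scalings shift all members alike. Mlxipl, Slc25a1, Acly and Acss2 have 1 probe set each, so the choice among probe sets cannot change them. Over all genes, the count at least 2-fold lower was 350, and 1213 without a floor, 207 with the 75th percentile floor, 1145 with the 1.5-fold limit and 95 with the 3-fold limit, and the count higher was 582, and 1662, 285, 1504 and 213. List and marker medians were also recomputed under the 5 scalings, a choice made after seeing the data. No paired analysis was possible because each group is 1 array.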

Other observations

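Some genes next to fatty acid synthesis were read differently by their own probe sets. Lpin2, a phosphatidate phosphatase, was 2.24-fold lower by its brighter probe set, at a log2 ratio of -1.16, and stood at 0.83 by the other one above the floor. The 2-fold call of its brighter probe set was lost under both control scalings. Acsl1, which activates long-chain fatty acids, stood at -0.88 and -1.60. Elovl6 stood at 0.13 and -0.30.

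The 3′ minus 5′ difference in log2 signal, a measure of RNA and labelling quality, was 2.74 and 2.91 for the beta-actin control after 1/3PH and 2/3PH. For the GAPDH control it was 0.66 and 0.36. The beta-actin 3′ signal was thus far above the 5′ signal on both arrays, which is a limit on all probe sets read here. The part of this quality measure in the difference between the Fasn probe sets, or in any other ratio, was not tested.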
